A study of Mus musculus with 4 samples.

Results

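The genes of cytotoxic effector function were followed across tumor CD8 T cells and tumor mesenchymal stroma cells (MSCs) of Wt and *Sipa1*-/- mice. The 10 members were chosen by symbol: *Gzma*, *Gzmb*, *Gzmk*, *Prf1*, *Ifng*, *Tnf*, *Fasl*, *Nkg7*, *Tbx21* and *Eomes*. They are 10 of 22911 named genes and 12 of 56605 probes on an Agilent mouse expression array, and all 10 had a probe. *Tnf* and *Eomes* had 2 probes each. C57BL/6Ncr mice aged 8 weeks, either Wt or *Sipa1* knock out, carried tumors grown from 15000 injected *Bcr-Abl*+ hematopoietic progenitor cells of Wt origin, which also carried GFP. Tumors were taken on day 12, and RNA came from sorted CD8 T cells (GFP negative, TCRβ positive, CD8 positive) or from sorted MSCs (GFP, CD45, Ter119 and CD31 negative). Each of the 4 conditions was measured on 1 array. The study used 5 mice per genotype, and whether their cells were pooled for an array was not stated. No difference below therefore has a replicate check, and no test was made.

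Killer T cells destroy a target mainly by emptying granules onto it. Perforin, the product of *Prf1*, opens the membrane of the target, and granzymes, serine proteases stored in the same granules, enter and start cell death. A separate route uses Fas ligand (*Fasl*) on the T cell surface, and the secreted cytokines IFN-γ (*Ifng*) and TNF (*Tnf*) act on tumor, stromal and myeloid cells at a distance. *Nkg7* encodes a granule membrane protein that takes part in degranulation. T-bet (*Tbx21*) and eomesodermin (*Eomes*) are T-box transcription factors that direct effector and memory programs in CD8 T cells and NK cells.

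Promoter sequence is shown for 4 members, the 3 granzymes, which did not share a direction between genotypes in CD8 T cells, and *Nkg7*, because T-box factors are themselves members. Each is the 250 bases before the start site in RefSeq on GRCm38.p6, read 5′ to 3′ on the strand of the gene. Capitals mark matches on either strand to GGTGTGA (T-box), its inner part (GTGTGA), the AP-1 motif TGANTCA and the Runx motif ACCACA, and every match of the longer T-box motif also counts for the shorter. *Gzma* and *Gzmk* lie beside each other on chromosome 13.
Gzmb, chr14:56262335-56262584, minus strand: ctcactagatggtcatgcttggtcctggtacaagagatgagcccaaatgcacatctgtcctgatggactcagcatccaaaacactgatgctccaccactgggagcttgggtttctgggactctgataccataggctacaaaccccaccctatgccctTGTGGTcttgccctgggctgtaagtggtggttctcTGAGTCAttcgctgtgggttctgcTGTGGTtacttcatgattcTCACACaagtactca
Gzmk, chr13:113180966-113181215, minus strand: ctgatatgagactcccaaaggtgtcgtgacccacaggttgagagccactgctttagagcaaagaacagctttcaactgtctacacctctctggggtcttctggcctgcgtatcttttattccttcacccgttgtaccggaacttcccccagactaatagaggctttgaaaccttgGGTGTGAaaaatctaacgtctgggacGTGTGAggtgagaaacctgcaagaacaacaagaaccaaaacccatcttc
Gzma, chr13:113100982-113101231, minus strand: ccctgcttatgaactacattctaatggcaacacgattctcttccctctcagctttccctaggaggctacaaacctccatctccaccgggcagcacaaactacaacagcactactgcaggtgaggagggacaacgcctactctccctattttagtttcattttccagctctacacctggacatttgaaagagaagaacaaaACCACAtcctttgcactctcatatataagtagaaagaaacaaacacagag
Nkg7, chr7:43436888-43437137, plus strand: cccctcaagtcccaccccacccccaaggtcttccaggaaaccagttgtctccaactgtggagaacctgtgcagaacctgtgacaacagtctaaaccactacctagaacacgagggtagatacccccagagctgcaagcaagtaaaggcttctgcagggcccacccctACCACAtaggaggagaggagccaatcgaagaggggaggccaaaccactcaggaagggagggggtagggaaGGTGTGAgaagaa

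All 10 members had a window of this length. The T-box motif GGTGTGA was in 2 of them, *Gzmk* and *Nkg7*, and in 3.33% of 32851 windows of all genes. The inner GTGTGA was in *Gzmk*, *Gzmb* and *Nkg7* and in 12.3% of all windows. In *Gzmk* it occurred at 2 places, 74 and 49 bases before the start. The AP-1 motif was in *Gzmb* alone among the members, 58 bases before the start, and in 6.75% of all windows. The Runx motif was in *Gzma*, *Gzmb*, *Prf1* and *Nkg7* and in 14.0% of all windows. The NFAT core GGAAA is not capitalized above because 55.6% of all windows held it, and it was in *Fasl*, *Nkg7*, *Ifng*, *Tbx21*, *Gzma* and *Tnf*. No binding was measured, and a match is a run of letters only.

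All levels below are log2 signal minus the 75th percentile of signal on the same array, so that 0 is the 75th percentile of that array. Values of different probes are not compared as levels. All 4 arrays were read on 1 slide at 1 scan time, between 60.3% and 65.3% of spots were well above background, and no spot was saturated. Probes printed on 10 spots gave a median SD of the difference between genotypes of 0.029 in CD8 T cells and 0.034 in MSCs on the log2 scale, which is spot noise only. *Sipa1* itself had lower signal in the knock out on both of its probes, and the log2 ratio of the gene was -1.86 in CD8 T cells and -1.42 in MSCs. In the CD8 T sorts all 13 T cell markers were well above background on both arrays, with a summed level of 676 times the 75th percentile in Wt and 691 times in *Sipa1*-/-. Both CD8 T sorts also held RNA of other cells. The summed level of 9 granulocyte markers was 639 in Wt and 334 in *Sipa1*-/-, and that of 11 fibroblast markers was 42.7 and 128.

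In CD8 T cells, 8 of the 10 members were higher on the *Sipa1*-/- array and *Gzma* and *Tnf* were lower, but no member reached 2-fold. The median log2 ratio of *Sipa1*-/- over Wt was 0.27 over the members and -0.02 over all 14339 genes measured on both arrays, of which 46.1% were higher by any amount. At 2-fold or more, 2.66% of all genes were higher and 1.4% lower, 4.06% in either direction, against 0 of 10 members. All 12 member probes were well above background on both arrays. The largest differences were those of *Ifng*, *Gzmk* and *Tnf*.

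**Figure D1:**
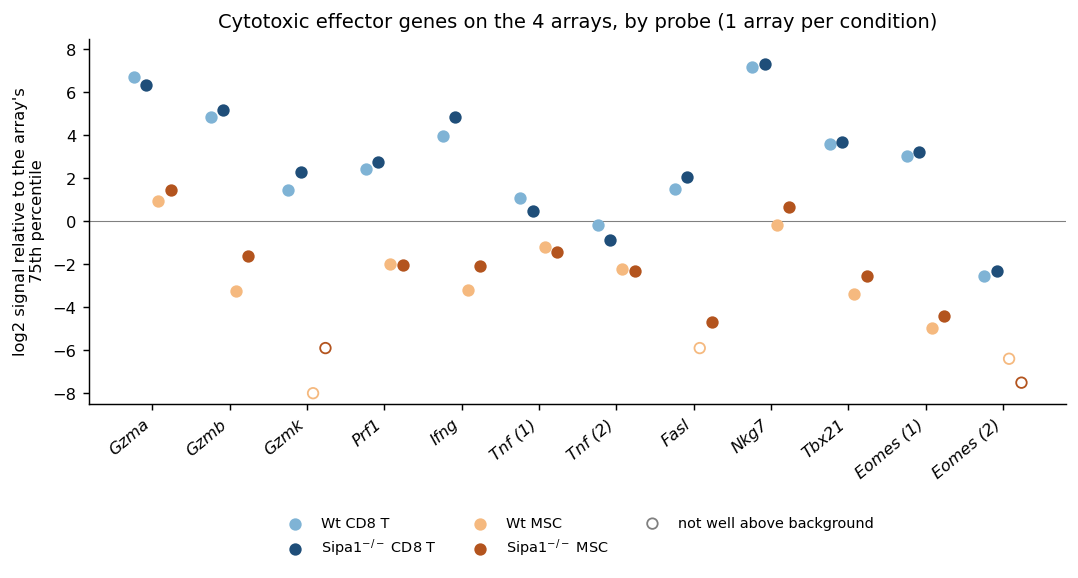
Log2 signal of each of the 12 member probes relative to the 75th percentile of its array (vertical axis) on the 4 arrays, 1 point per array, with hollow points where the spot was not well above background. For all 12 probes both CD8 T points lie above both MSC points, and *Gzmk*, *Fasl* and the second *Eomes* probe include hollow MSC points.

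Among the granule proteases, the 3 granzymes did not share a direction. *Gzmb*, the granzyme that cleaves after aspartate and activates caspases, stood at 4.84 in Wt CD8 T cells and 5.19 in *Sipa1*-/- CD8 T cells, a log2 ratio of 0.36. *Gzmk*, a tryptase of memory and early effector CD8 T cells, stood at 1.45 and 2.30, a log2 ratio of 0.85 or 1.80-fold. *Gzma*, a tryptase whose gene lies next to that of *Gzmk*, stood at 6.70 and 6.34, a log2 ratio of -0.36. The neighbors on chromosome 13 therefore had ratios of opposite sign on these arrays. Of all 14339 genes, 3.69% had a ratio as high as *Gzmk*, 12.2% one as high as *Gzmb*, and 6.93% one as low as *Gzma*.

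The remaining granule members were close to each other in ratio. *Prf1*, the pore former, was at 2.45 in Wt and 2.78 in *Sipa1*-/- CD8 T cells, a log2 ratio of 0.33. *Nkg7* was at 7.19 and 7.33, a log2 ratio of 0.14, and 27.0% of all genes had one as high. The ratio of *Prf1* was matched or passed by 13.4% of all genes.

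*Ifng*, which encodes the cytokine that induces antigen presentation and CXCR3 chemokines, had the highest ratio of the members. It was at 3.98 in Wt and 4.85 in *Sipa1*-/- CD8 T cells, a log2 ratio of 0.87 or 1.82-fold, and 3.51% of all genes had one as high. Among the 985 genes of like brightness, within 1 log2 unit, 0.914% did. By the same measure the share as high was 0.815% for *Gzmk*, 1.48% for *Fasl*, 2.33% for *Gzmb* and 2.81% for *Prf1*. It was 7.69% for *Nkg7*, 11.0% for *Tbx21* and 12.6% for *Eomes*. The share as low was 3.36% for *Gzma* and 2.05% for *Tnf*. *Fasl*, the ligand of the death receptor Fas, was at 1.51 and 2.04, a log2 ratio of 0.54. *Tnf* ran the other way on both of its probes. One *Tnf* probe was at 1.07 in Wt and 0.49 in *Sipa1*-/- cells, a log2 ratio of -0.58, and the other at -0.16 and -0.84, a log2 ratio of -0.68. Their mean, -0.63 or 1.55-fold lower, was matched in that direction by 2.79% of all genes. *Ifng* and *Tnf*, the secreted cytokines of the group, thus differed in opposite directions.

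The T-box factors had small ratios. *Tbx21* was at 3.59 in Wt and 3.69 in *Sipa1*-/- CD8 T cells, a log2 ratio of 0.10. The first *Eomes* probe was at 3.03 and 3.24, a log2 ratio of 0.21, and the second at -2.54 and -2.32, a log2 ratio of 0.22. The *Eomes* probes sat far apart in signal and gave nearly the same ratio. When arrays were shifted by their median instead of their 75th percentile, the median of all genes moved by -0.15 and the sign turned for *Nkg7* (-0.011) and *Tbx21* (-0.045), while *Ifng*, *Gzmk*, *Gzmb*, *Fasl*, *Prf1*, *Eomes*, *Gzma* and *Tnf* kept theirs under every alternative.

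**Figure D2:**
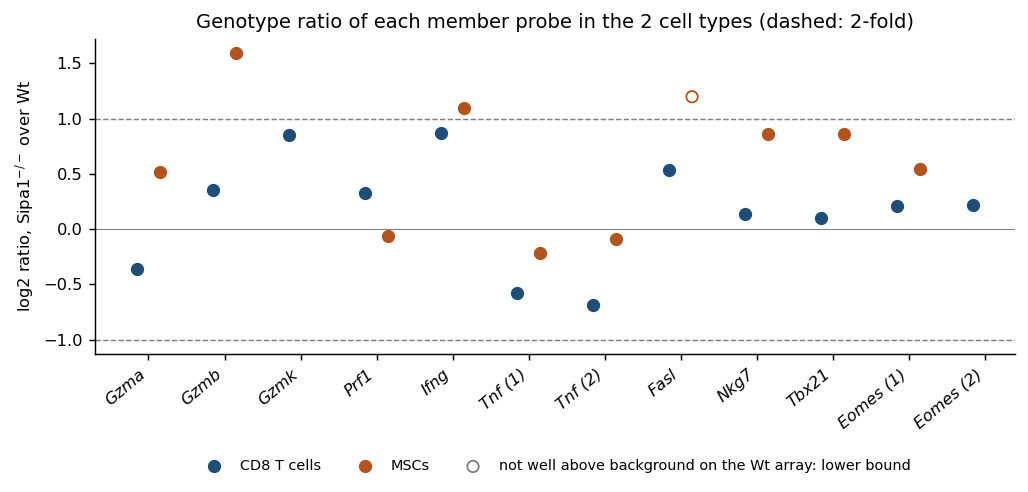
Log2 ratio of *Sipa1*-/- over Wt (vertical axis) for each of the 12 member probes in CD8 T cells and in MSCs, 1 array per condition, with dashed lines at 2-fold. No CD8 T point reaches the dashed lines, and *Gzmb* and *Ifng* pass the upper line in MSCs. The hollow *Fasl* point is a lower bound for the processed signal. No MSC point is drawn for *Gzmk* or the second *Eomes* probe, which were not well above background on either MSC array.

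Markers of other cells differed between the same CD8 T arrays, and their part in the members' ratios was not tested. The median log2 ratio of the T cell markers was 0.00, with 8 of 13 higher and none past 2-fold, so the members' median lay above that of the T cell markers. All 7 NK cell markers were lower on the *Sipa1*-/- array, with a median of -0.40 and a summed level of 47.8 in Wt and 33.4 in *Sipa1*-/-. *Tyrobp* and *Fcer1g*, at 4.47 and 4.44 in Wt, weighed most in that sum and are also expressed by myeloid cells. *Klrb1c* was the only NK cell marker at least 2-fold lower, with a log2 ratio of -2.03. NK cells share with T cells the granzymes, perforin, IFN-γ and both T-box factors. All 11 fibroblast markers were at least 2-fold higher (median 1.55) and 8 of 9 granulocyte markers at least 2-fold lower (median -1.33). Fewer cells of a type and less RNA per cell cannot be told apart in sorted bulk RNA.

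On the MSC arrays, 8 of the 10 members were measured in both genotypes, 6 of these were higher in *Sipa1*-/- cells, and *Gzmb* and *Ifng* passed 2-fold. The median log2 ratio was 0.70 over the members and 0.04 over all 15298 genes. Differences of this size were common between the MSC arrays: 19.3% of all genes passed 2-fold upward and 11.3% downward, 30.7% in either direction, and 51.8% were higher by any amount, so that 2 of 8 members higher is near the share over all genes.

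*Gzmb* was at -3.22 in Wt MSCs and -1.63 in *Sipa1*-/- MSCs, a log2 ratio of 1.59 or 3.02-fold, and 8.77% of all genes had one as high. *Ifng* was at -3.19 and -2.09, a log2 ratio of 1.10 or 2.14-fold, which 17.4% of all genes reached. *Nkg7* was at -0.19 and 0.67, a log2 ratio of 0.86. These members were far lower on both MSC arrays than on either CD8 T array. *Tbx21* was at -3.38 and -2.52, a log2 ratio of 0.86. *Gzma* was at 0.96 and 1.47, a log2 ratio of 0.52, the reverse of its sign in CD8 T cells. The first *Eomes* probe was at -4.97 and -4.42, a log2 ratio of 0.54, and with dim probes let in, which adds the second *Eomes* probe, the ratio of the gene was -0.28.

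*Prf1* and *Tnf* showed little difference between the MSC arrays. *Prf1* was at -1.96 in Wt and -2.03 in *Sipa1*-/- MSCs, a log2 ratio of -0.065. The *Tnf* probes had log2 ratios of -0.22 and -0.09. With the authors' own scaled values, in which the median of all genes was 0.21 higher, the sign turned for *Prf1* (0.14) and *Tnf* (0.050). *Fasl* was not well above background on the Wt array and at -4.66 on the *Sipa1*-/- array. In the processed signal this makes it at least 2.29-fold higher, but both sides were near the floor. Its signal on the *Sipa1*-/- array was 18.1, or 0.79 times local background, and the Wt side was set to the floor of 8.12. *Gzmk* and the second *Eomes* probe were not well above background on either array, and no ratio is given.

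The MSC sorts also differed in markers of other cells, whose part in the members' ratios was not tested. Among T cell markers, 12 of 13 were measured on both arrays with a median log2 ratio of 0.61. In *Sipa1*-/- cells 8 were higher, 4 of them at least 2-fold (*Cd3g* 1.43, *Cd8b1* 1.31, *Cd28* 1.19 and *Cd3d* 1.10 as log2 ratios), and 4 were at least 2-fold lower (*Cd2* -3.52, *Lat* -2.69, *Zap70* -1.59 and *Lck* -1.07). The summed level of all 13 was 23.7 in Wt and 6.37 in *Sipa1*-/-, against 676 and 691 on the CD8 T arrays, and *Cd2* weighed most in the Wt sum, at a log2 level of 4.08 against 0.56 in *Sipa1*-/-. *Cd8a*, the defining coreceptor gene, was not well above background on the Wt MSC array. Pan-leukocyte markers had a median log2 ratio of -1.69 and B lineage markers one of -4.16. The summed level of 12 B lineage markers was 692 in Wt and 42.9 in *Sipa1*-/- MSCs, and that of 11 fibroblast markers 999 and 1621. The MSC ratios therefore compare sorts that held unlike amounts of B lineage RNA. Macrophage markers had a median of 1.02, with 5 of 10 at least 2-fold higher, fibroblast markers 1.54, with 6 of 10 measured at least 2-fold higher, and granulocyte and NK cell markers 0.22 each. Of the 6 NK cell markers measured, 2 were at least 2-fold lower and none that much higher. The T cell, macrophage, fibroblast, granulocyte and NK cell medians thus had the sign of the members' median. The pan-leukocyte and B lineage medians had the opposite sign.

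*Gzma* was the one member measured in both cell types whose ratio was negative in CD8 T cells and positive in MSCs. Subtracting the MSC ratio from the CD8 T ratio gave -1.24 for *Gzmb*, -0.88 for *Gzma*, -0.75 for *Tbx21*, -0.72 for *Nkg7*, -0.48 for *Tnf*, -0.33 for *Eomes*, -0.23 for *Ifng* and 0.39 for *Prf1* on the log2 scale. With 1 array per condition these differences between cell types were not tested.

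Between cell types all 10 members were at least 2-fold higher in CD8 T cells than in MSCs, in Wt and in *Sipa1*-/- mice. In the Wt pair 12.8% of 16248 genes were that much higher and 20.8% that much lower, and in the *Sipa1*-/- pair 18.1% and 25.1% of 16506. The median log2 difference over the members was 7.07 in Wt and 6.44 in *Sipa1*-/- mice, against 0.00 and 0.08 over all genes. The direction and the 10 of 10 count held under the 7 alternatives run for these pairs. MSCs were sorted as cells without CD45, and the direction is a check on cytotoxic cell RNA only. The MSC sorts were not free of leukocyte RNA. The summed level of 8 pan-leukocyte markers was 175 in Wt and 51.6 in *Sipa1*-/- MSCs, against 653 and 627 in CD8 T cells. That of 9 granulocyte markers was 733 and 816 in MSCs, against 639 and 334 in CD8 T cells.

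**Figure D3:**
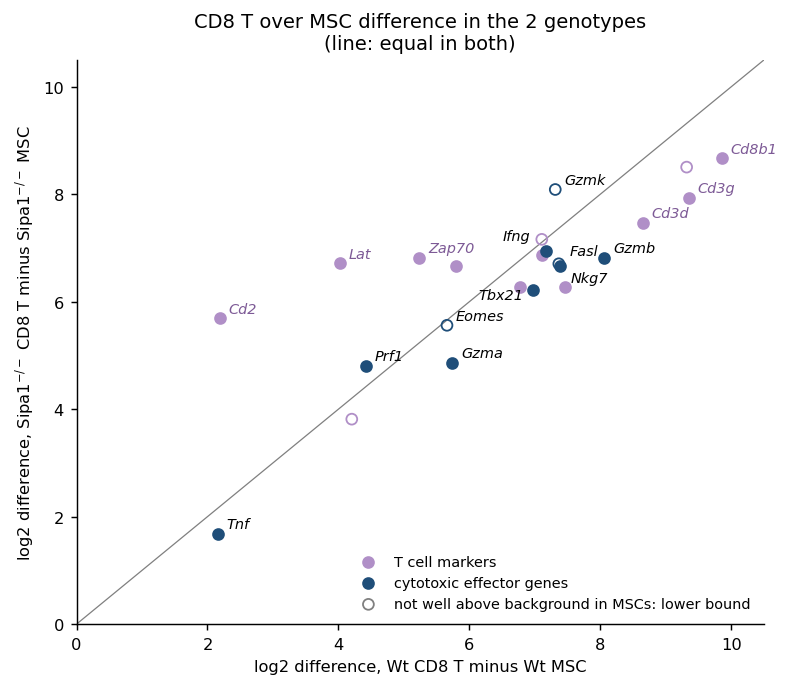
Log2 difference of CD8 T cells minus MSCs in Wt mice (horizontal axis) against that in *Sipa1*-/- mice (vertical axis). Each point is 1 member gene or T cell marker, from 1 array per condition. Hollow points mark an MSC spot not well above background, where the difference is a lower bound for the processed signal. *Tnf* lies lowest at 2.16 and 1.68, and of the 7 members without a bound *Prf1* lies above the line of equal differences and the other 6 below it.

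The size of the gap varied among the members. *Gzmb* was 266-fold higher in CD8 T cells than in MSCs of Wt mice and 113-fold higher in *Sipa1*-/- mice. *Ifng* was 144-fold and 122-fold higher. *Nkg7* was 167-fold and 101-fold higher, and *Tbx21* 125-fold and 74.1-fold. The first *Eomes* probe gave 256-fold and 202-fold. For *Gzmk*, which was not well above background in MSCs, the difference was at least 159-fold in Wt and at least 272-fold in *Sipa1*-/- mice. *Fasl* was at least 165-fold higher in Wt and 104-fold higher in *Sipa1*-/- mice. The second *Eomes* probe gave at least 9.99-fold and at least 11.0-fold. These bounds hold for the processed signal only and fell with the normexp alternative. The log2 difference of *Gzmk* was then 4.43 in Wt and 5.07 in *Sipa1*-/- mice, against 7.31 and 8.09 before. For *Fasl* it was 4.35 and 4.66, against 7.37 and 6.71. The mean of the *Eomes* probes gave 3.45 and 3.57, against 5.66 and 5.56.

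Among the 7 members whose probes were all well above background in MSCs, the smallest gaps were those of *Tnf*, *Prf1* and *Gzma*. The *Tnf* probes gave 4.81-fold and 4.14-fold in Wt and 3.73-fold and 2.75-fold in *Sipa1*-/- mice. *Tnf* is also made by myeloid cells. *Prf1* was 21.4-fold higher in Wt and 28.0-fold higher in *Sipa1*-/- mice, and *Gzma* 53.5-fold and 29.1-fold. On the same scale the 13 T cell markers had a median log2 difference of 7.11 in Wt and 6.82 in *Sipa1*-/- mice. They did not share a direction between genotypes. *Cd3e* had 6.78 in Wt and 6.28 in *Sipa1*-/- mice and *Cd3d* 8.65 and 7.47, while *Cd2*, *Lat*, *Zap70* and *Lck* had a wider difference in *Sipa1*-/- mice.

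Around the members, 77 further genes of the cytotoxic pathway were listed in 9 groups, and 67 were measured on both CD8 T arrays. None of the 67 passed 2-fold in either direction, where 4.06% of all genes did, so this count is near the share over all genes. Of the 67, 39 were higher and 28 lower, where 46.1% of all genes were higher by any amount. The median log2 ratio of the 67 was 0.04. Under the authors' own scaled values, 1 of 67 passed 2-fold, *Prdm1* (1.04), and with flags asked of 1 array, 1 of 68 did, *Ido1* (1.05), which was not well above background in Wt CD8 T cells.

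**Figure D4:**
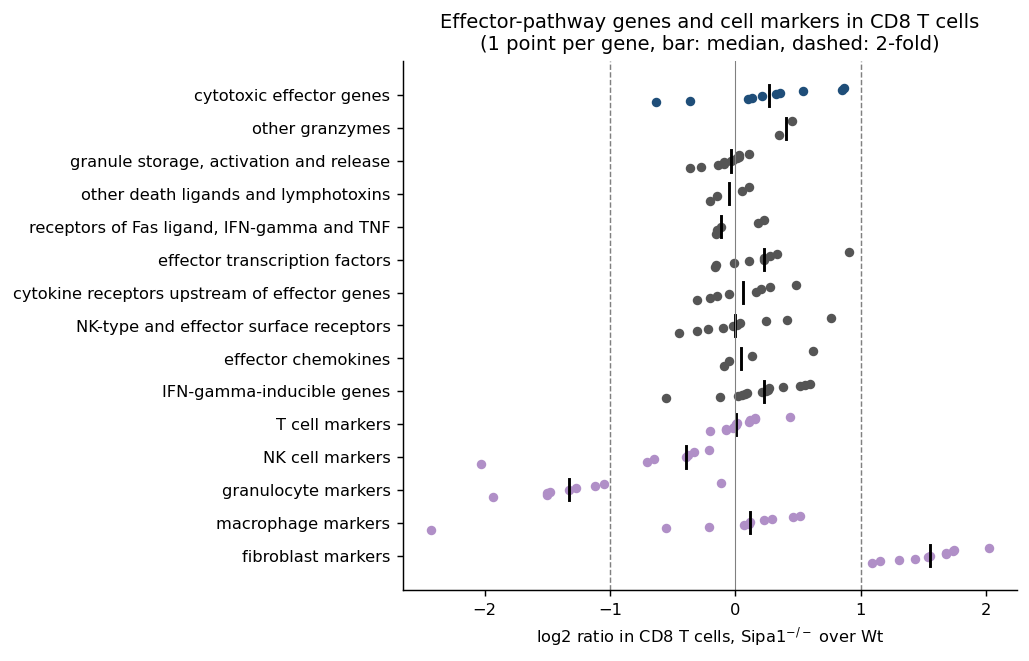
Log2 ratio of *Sipa1*-/- over Wt in CD8 T cells (horizontal axis) for each measured gene of the members, the 9 pathway groups and 5 marker lists, 1 point per gene from 1 array per genotype, with a bar at each median and dashed lines at 2-fold. No member or pathway gene lies beyond the dashed lines, while all fibroblast markers lie beyond the upper line and 8 of 9 granulocyte markers beyond the lower.

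Other granzymes were measured for 2 of 7 genes, *Gzmm* with a log2 ratio of 0.45 and *Gzmc* with 0.35. The machinery that stores, activates and releases granules had a median of -0.04 over 11 of 11 genes, 4 higher and 7 lower, and its lowest ratio was that of *Srgn* (-0.36), the proteoglycan that holds granzymes in the granule. The median of this group thus lay close to 0, with single genes from -0.36 to 0.11. Of the effector transcription factors, 9 of 10 were measured with a median of 0.23, 6 higher and 3 lower. The highest was *Prdm1* (0.91), which encodes Blimp-1. The NK-type and effector surface receptors had a median of 0.00 over 10 of 11 genes, 5 higher and 5 lower, from *Klrd1* (-0.45) to *Klrg1* (0.77). Cytokine receptors upstream of the effector genes had a median of 0.06 over 8 of 8 genes, 4 higher and 4 lower. They ran from *Il2rb* (-0.30) to *Il2ra* (0.49), both chains of the IL-2 receptor.

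Downstream of *Ifng*, 14 of 17 IFN-γ-inducible genes were measured in CD8 T cells, 12 were higher and 2 lower, and their median was 0.23. Of all genes, 46.1% were higher by any amount. *Iigp1*, an interferon-induced GTPase, had a log2 ratio of 0.60 and *Cxcl9*, a CXCR3 chemokine, 0.56, while *Cxcl10*, another, had -0.55. The effector chemokines had a median of 0.04 over 4 of 4 genes, with *Ccl4* at 0.62. The receptors of Fas ligand, IFN-γ and TNF had a median of -0.11 over 5 of 5, and the other death ligands and lymphotoxins -0.05 over 4 of 4. Macrophage markers had a median log2 ratio of 0.11 on the same arrays and fibroblast markers one of 1.55. In *Sipa1*-/- mice *Cxcl9* was at 2.74 in CD8 T cells and 4.58 in MSCs, and *Iigp1* at 2.11 and 4.74. Of the 15 IFN-γ-inducible genes measured in that pair, 10 were higher in CD8 T cells and 5 lower. The part of other cells in the ratios of this group was not tested. With the arrays shifted by their median, the median of the IFN-γ-inducible genes was 0.08 and that of the transcription factors 0.08. The median of all genes was then -0.17.

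In MSCs 63 of the 77 pathway genes were measured, and in *Sipa1*-/- cells 13 passed 2-fold upward and 11 downward, where 19.3% and 11.3% of all genes did. Outside the 63, *Gzmc*, *Gzme* and *Gzmn* were at -3.69, -2.62 and -3.65 in *Sipa1*-/- MSCs and not well above background in Wt MSCs. *Gzme* and *Gzmn* were not well above background on either CD8 T array. The IFN-γ-inducible group held 3 of the higher genes among 14 measured, near the share of all genes, *Cxcl9* (2.25), *Cxcl10* (1.31) and *Iigp1* (1.12) as log2 ratios, and no lower gene. *Cxcl10* therefore had opposite signs in the 2 cell types. *Tnfrsf1a*, which encodes a TNF receptor of stromal cells, was also higher (1.56), as were the effector chemokines *Ccl5* (1.41) and *Xcl1* (1.21). The death ligands held 3 lower genes of 4, *Tnfsf10* (-3.19), *Lta* (-3.11) and *Ltb* (-1.96). *Lta* and *Ltb* are lymphocyte genes, and the median log2 ratio of B lineage genes between the MSC arrays was -4.16. T cell sorts held both transcripts too. In Wt and *Sipa1*-/- CD8 T cells *Ltb* was at 7.04 and 7.15, and *Lta* at -0.09 and -0.04. Which cells gave rise to the *Lta* and *Ltb* differences between the MSC arrays was not tested. Among surface and cytokine receptors *Slamf7* (-4.23), *Il2ra* (-3.32), *Il21r* (-1.57) and *Cd244a* (-1.23) were lower and *Klrg1* (1.69) and *Crtam* (1.08) higher. Of the transcription factors, *Bhlhe40* (2.13) and *Id2* (1.77) were higher and *Irf4* (-2.94) and *Stat4* (-2.80) lower. The granule machinery was split too, with *Lamp2* (1.44), *Serpinb9* (1.05) and *Lamp1* (1.01) higher and *Stxbp2* (-1.48) and *Unc13d* (-1.18) lower.

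The genes nearest the members in pattern were searched among 14329 genes over the 4 arrays, by the root mean square difference from the members' median pattern after each gene was centered on its own mean. That median pattern was 3.17 in Wt CD8 T cells, 3.46 in *Sipa1*-/- CD8 T cells, -3.83 in Wt MSCs and -2.92 in *Sipa1*-/- MSCs. The nearest were *Cd3e* (0.134 log2 units), *Cd28* (0.170), *Cd5* (0.179), *2010016I18Rik* (0.201) and *5830411N06Rik* (0.202, not well above background in Wt MSCs). *Cd3e* encodes a chain of the T cell receptor complex, *Cd28* its costimulatory partner and *Cd5* a T cell surface glycoprotein. Among the members themselves the distance ran from 0.092 for *Tbx21* to 2.44 for *Tnf*, which has the flattest pattern over the 4 arrays.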

How the data were processed

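For each one-color Agilent array the authors deposited the scanner's table of spot intensity, extracted with Feature Extraction and its background correction (9.1 per the submitters' processing notes, 12.0.3.1 per the file headers). They were not scaled between arrays. The authors' series matrix holds the same processed signal times 1 constant per array, on an unstated basis. The median spot signal and median background intensity, also deposited, served the normexp alternative only.

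Non-control spots were named through their accessions in a RefSeq table (GRCm38.p6), and 57.6% had a symbol. Values are log2 processed signal minus the array's 75th percentile, averaged over spots, then probes. For genotype ratios, probes passed the saturation, non-uniformity and background flags on both arrays, as in the study's methods. Between cell types, dim values were raised to the lowest signal among probes well above background on that array, or kept if higher, giving bounds. Counts used 2-fold. Since a condition had 1 array, slide and scan time were shared by all arrays, precision is limited by array number, and no p-value exists.

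The genes named were the members, *Sipa1*, listed genes past 2-fold in CD8 T cells or needed as background, and the 5 nearest by pattern. Listed genes below 2-fold in CD8 T cells or past 2-fold in MSCs were named after their values were seen. Of 176 listed genes, 172 matched the array. Members and lists were chosen with earlier results of these data known. Alternatives were a median shift, a 75th percentile over probes well above background on all 4 arrays, quantile normalization, normexp (offset 50), the series matrix, the brightest probe, no flags, and, for genotype ratios only, flags on 1 array. Computation used R 4.3.3 with limma 3.58.1 and Python 3.11.15 with matplotlib 3.10.9, numpy 2.4.6 and pandas 2.3.3.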

Additional observations from a re-analysis of the deposited data

Results flagged for a closer look

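*Gzma* had a log2 ratio of *Sipa1*-/- over Wt of -0.36 in CD8 T cells and 0.52 in MSCs, opposite signs in the 2 cell types. Each ratio rests on 1 probe and 1 array per condition, so this difference was not tested. The CD8 T value lay between -0.51 and -0.17 over all alternatives.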

How the results depend on the processing

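No paired analysis was possible because only replicate 1 exists in every group. No member past 2-fold changed sign under any alternative run. The members' median log2 ratio in CD8 T cells, 0.27, was 0.12 with a median shift, 0.31 with the percentile over probes well above background on all arrays, 0.33 with quantile normalization, 0.23 with normexp and 0.40 with the series matrix, and no member passed 2-fold under any of them. In MSCs the median, 0.70, was 0.56 with a median shift, 0.66 with quantile normalization, 0.47 with normexp, 0.91 with the series matrix, 0.86 with no flags and 0.86 with flags on 1 array. The count past 2-fold there, 2, was 1 with a median shift (*Ifng* at 0.96), 0 with normexp (*Gzmb* 0.95), 3 with flags on 1 array (*Fasl* entered at 1.23), 4 with no flags (*Gzmk* and *Fasl* entered) and 4 with the series matrix (*Nkg7* and *Tbx21* at 1.06). The median shift, the percentile over probes well above background on all arrays and the series matrix each move every ratio of a pair by 1 constant. With them the median of all genes moved by -0.15, 0.04 and 0.13 in CD8 T cells and by -0.14, 0.03 and 0.21 in MSCs. For the other alternatives the cause of the differences was not tested. The median of CD8 T cells minus MSCs was 7.30, 7.01, 6.96, 5.06, 6.61 and 7.24 in Wt and 6.66, 6.39, 6.34, 4.95, 5.91 and 6.68 in *Sipa1*-/- mice with the median shift, the percentile over probes above background on all arrays, quantile normalization, normexp, the series matrix and the brightest probe, and 6.54 in *Sipa1*-/- mice with no flags. Of all genes past 2-fold, 65.5% were higher in CD8 T cells of *Sipa1*-/- mice, 52.5% with a median shift, 52.2% with normexp and 76.3% with the series matrix, and 63.1% in MSCs, 54.1% with a median shift and 74.1% with the series matrix. Between cell types 38.2% were higher in CD8 T cells of Wt mice, 49.4% with a median shift and 21.4% with the series matrix, and 41.9% in *Sipa1*-/- mice, 52.2% with a median shift and 21.7% with the series matrix. Signal over background limits *Gzmk*, *Fasl* and the second *Eomes* probe in MSCs to bounds or to no value.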
